A study of Homo sapiens with 16 samples.

Results

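The transcripts of 35 aminoacyl-tRNA synthetase genes were followed in A498 cells, an established human line of clear cell renal cell carcinoma (ccRCC), after knockdown of the triglyceride-forming enzymes DGAT1 and DGAT2. The genes were taken from a list of named enzymes, 19 acting in the cytosol and 16 in mitochondria, out of 22411 genes measured, and all 35 had a probe set of their own. The list is not the whole family, and each gene is represented by the brightest probe set that carries exactly 1 gene symbol. The rule names the genes and uses no measured values, but the list was drawn up with earlier results of these data known. Shares of the list that pass the threshold are therefore a description and carry no test.

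Aminoacyl-tRNA synthetases join each amino acid to its matching tRNA, the step at which the genetic code is read into chemistry. Human cells use largely separate sets for cytosolic and mitochondrial translation, both encoded in the nucleus, whereas GARS1 and KARS1 each serve both compartments from a single gene. Uncharged tRNA is sensed by the kinase GCN2 (gene EIF2AK4), which phosphorylates the initiation factor eIF2 and raises translation of the transcription factor ATF4, and many cytosolic synthetase genes are known ATF4 targets, whereas most mitochondrial ones are not listed among them.

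The design held 4 groups of 4 arrays each. All cells carried the same lentiviral hairpins against both DGAT genes under a doxycycline-responsive (Tet) promoter. Cells received doxycycline, which induces the hairpins, or vehicle, which leaves them uninduced, for 5 days. They then spent 2 days in low serum, in hypoxia (0.5% O2) or normoxia, before RNA extraction. The groups were therefore doxycycline hypoxia, doxycycline normoxia, vehicle hypoxia and vehicle normoxia. The control was the same line without induction. Doxycycline is known to act on mitochondrial ribosomes, and without a line carrying a neutral hairpin in these arrays its own effect and that of the hairpins cannot be told apart. The labels name the replicates biological but do not describe separate cultures, so p-values measure the spread between these arrays, which may be technical.

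The targeted genes behaved as labelled in every sample. DGAT1 measured 5.04 to 5.20 in doxycycline normoxia and 6.67 to 6.99 in vehicle normoxia on the deposited log2 scale, which left 30.7% of its signal, and in hypoxia it measured 5.10 to 5.28 with doxycycline and 6.24 to 6.70 with vehicle (40.2% left). For DGAT2, 28.1% was left in normoxia and 37.9% in hypoxia. Each of these 4 differences had an exact two-sided permutation p of 0.0286, the smallest that 4 against 4 arrays allow. Renal epithelial markers were bright (KRT8 14.09 to 15.15, and PAX8 between the percentiles 93.7 and 96.5 of all genes), while leukocyte PTPRC (3.14 to 3.51) and endothelial PECAM1 (2.80 to 3.36) lay below the median level of all genes, 4.89, as did CD3E, VWF and ALB. PAX2 and NNMT were only modestly above that median (5.71 to 6.22 and 6.55 to 7.36). A single axis held 63.3% of the variance within groups over all genes, with replicate 4 of vehicle hypoxia at one end (score 45.8), replicate 4 of doxycycline hypoxia at the other (−31.5), and the remaining arrays between −26.1 and 22.9. Counts of calls in doxycycline hypoxia against vehicle hypoxia, the pairs of enzymes and the neighbouring gene lists are also given without both of these arrays.

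The promoters are shown first because the share holding the ATF4 motif is a feature of the genes that the rule did not use. ATF4 binds the C/EBP-ATF response element, here searched as TGATGNAA on both strands (TTNCATCA on the other) in windows of 300 bases, 250 before and 50 after each RefSeq gene start (GRCh38.p14). Of the 35 genes, 30 had a window, and 8 of these held a match (26.7%), against 1217 of 27305 genes with a promoter window (4.46%). Among cytosolic genes 7 of 16 held it (43.8%), and among mitochondrial genes 1 of 14 (7.14%). The form TGATGCAA alone was present in 6 of 16 cytosolic genes (37.5%), in 0 of 14 mitochondrial genes and in 1.08% of all genes. LARS1, VARS1, YARS1, AARS2 and VARS2 were not matched to a window. The matches are printed below in 30-base windows, 5′ to 3′ on the strand of the gene, with the match in capitals.
AARS1 (chr16:70289675-70289704, minus strand): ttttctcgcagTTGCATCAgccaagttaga
MARS1 (chr12:57488053-57488082, plus strand): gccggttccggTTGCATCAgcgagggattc
CARS1 (chr11:3057407-3057436, minus strand): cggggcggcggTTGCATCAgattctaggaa
GARS1 (chr7:30594834-30594863, plus strand): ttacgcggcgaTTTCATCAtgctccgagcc
IARS1 (chr9:92293692-92293721, minus strand): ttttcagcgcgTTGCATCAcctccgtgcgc
NARS1 (chr18:57621804-57621833, minus strand): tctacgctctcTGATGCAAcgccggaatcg
TARS1 (chr5:33440956-33440985, plus strand): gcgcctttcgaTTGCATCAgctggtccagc
YARS2 (chr12:32756076-32756105, minus strand): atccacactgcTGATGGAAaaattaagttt

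The first 7 are cytosolic and YARS2, the mitochondrial tyrosyl enzyme, is the only mitochondrial gene with a match. In AARS1 the match began 187 bases before the gene start, and in MARS1 it began 4 bases before it. The 250 bases upstream of AARS1 are given in full because AARS1 had the most negative difference with doxycycline in normoxia, again with the match in capitals.
AARS1 upstream (chr16:70289507-70289756, minus strand): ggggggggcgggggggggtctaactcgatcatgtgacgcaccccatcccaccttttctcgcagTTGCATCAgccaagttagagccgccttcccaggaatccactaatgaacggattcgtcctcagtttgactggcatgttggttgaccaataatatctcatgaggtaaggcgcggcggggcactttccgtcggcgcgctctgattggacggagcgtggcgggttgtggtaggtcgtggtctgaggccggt

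A match describes these letters and is not a bound site. With doxycycline in normoxia 2 of the 7 cytosolic genes with a match passed the threshold (AARS1 and MARS1), and 2 of the 9 without one (SARS1 and WARS1). All of these were lower, as were 4.65% of all genes. In hypoxia against normoxia 1 of the 7 and 4 of the 9 were lower with vehicle, and 0 and 3 with doxycycline. Over all genes 4.65% were lower with vehicle and 2.97% with doxycycline.

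The first comparison asked what induction of the DGAT hairpins did at normal oxygen. In doxycycline normoxia 6 of 19 cytosolic and 3 of 16 mitochondrial synthetase genes were lower than in vehicle normoxia, and none was higher (limma, adjusted over all genes with Benjamini-Hochberg, threshold 0.05). That is 25.7% of the 35 genes, where 4.65% of all genes were lower and 4.43% were higher. The cytosolic genes were those for tryptophan (WARS1), alanine (AARS1), serine (SARS1), methionine (MARS1), tyrosine (YARS1) and valine (VARS1), and the mitochondrial genes NARS2, AARS2 and TARS2 charge asparagine, alanine and threonine. The median difference was −0.15 on the log2 scale over cytosolic genes and −0.05 over mitochondrial genes, beside −0.02 over all genes, and 15 of 19 cytosolic and 12 of 16 mitochondrial differences were below 0. These medians moved with single arrays: the cytosolic one was −0.26 without replicate 1 of vehicle normoxia, and the mitochondrial one was −0.12 without replicate 2 and −0.02 without replicate 3 of vehicle normoxia, −0.09 without replicate 2 of doxycycline normoxia and −0.08 without replicate 1 of vehicle normoxia. No change was as large as 1.5-fold on the deposited scale. In bulk RNA, fewer cells of a kind and less RNA per cell cannot be told apart.

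WARS1, the tryptophanyl enzyme that interferon-γ is known to induce, measured 12.34, 12.42, 12.34 and 12.35 on replicates 1 to 4 of doxycycline normoxia, against 12.83, 12.79, 12.94 and 12.88 in vehicle normoxia. Every doxycycline array lay below every vehicle array, with a difference of −0.50 ± 0.08 (SE) and an adjusted p of 0.00079. AARS1 measured 14.78, 14.92, 14.70 and 14.74 with doxycycline and 15.45, 15.22, 15.40 and 15.37 with vehicle. Its difference, −0.57 ± 0.09 with an adjusted p of 0.000918, was the most negative of the 35. SARS1, which supplies seryl-tRNA and, through it, the precursor of selenocysteine, measured 11.55, 11.61, 11.59 and 11.51 with doxycycline and 12.03, 11.94, 12.03 and 12.01 with vehicle. The groups did not overlap, and the difference was −0.44 ± 0.08 (adjusted p 0.00333).

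MARS1, which charges both initiator and elongator methionine tRNA, measured 12.07, 12.22, 11.99 and 12.03 in doxycycline normoxia and 12.70, 12.39, 12.68 and 12.72 in vehicle normoxia. Its groups were separate even though replicate 2 of vehicle normoxia lay below the other vehicle arrays, and it differed by −0.55 ± 0.12 (adjusted p 0.00856). YARS1 measured 10.41, 10.55, 10.31 and 10.34 with doxycycline, against 10.87, 10.65, 10.93 and 10.87 with vehicle, a difference of −0.43 ± 0.10 (adjusted p 0.0147). VARS1 measured 8.32, 8.52, 8.28 and 8.36 with doxycycline, against 8.93, 8.57, 8.72 and 8.74 with vehicle, a difference of −0.37 ± 0.10 (adjusted p 0.0378). YARS1 lost its call without replicate 3 of doxycycline normoxia (adjusted p 0.0518), and VARS1 kept its call in 8 of 16 fits that each left out 1 array (highest adjusted p 0.113, without replicate 1 of vehicle normoxia), whereas WARS1, AARS1, SARS1 and MARS1 kept theirs in all 16. VARS1 was also the only one of the 35 with several usable probe sets (7), of which the brightest was read.

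**Figure D1:**
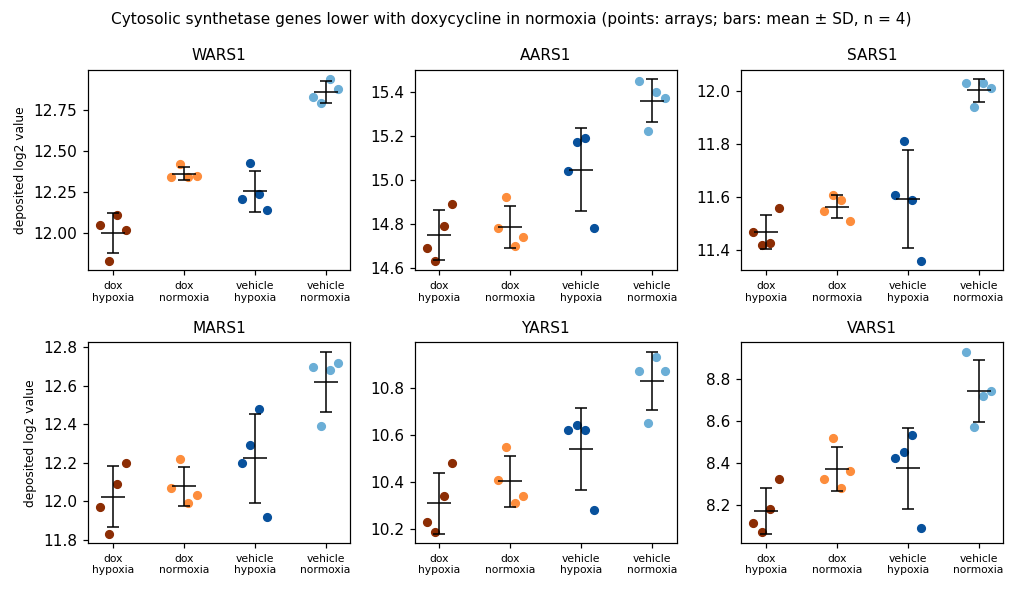
Deposited log2 values (vertical axes) of the 6 cytosolic synthetase genes that were lower with doxycycline in normoxia, by group, with points for arrays and bars for the mean ± SD of 4 arrays. In each panel the 4 doxycycline normoxia arrays lie below the 4 vehicle normoxia arrays, and replicate 4 of vehicle hypoxia lies lowest of its group.

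Of the mitochondrial genes, NARS2 measured 7.71, 7.64, 7.70 and 7.52 in doxycycline normoxia and 7.80, 7.95, 8.04 and 7.94 in vehicle normoxia. The difference was −0.29 ± 0.07 (adjusted p 0.0198), without overlap. AARS2, in which mutations are known to cause heart and white matter disease, measured 5.85, 5.86, 5.77 and 5.72 with doxycycline and 5.96, 5.92, 6.06 and 6.02 with vehicle. It was lower by a small margin, −0.19 ± 0.05 (adjusted p 0.0267). TARS2 measured 8.30, 8.50, 8.18 and 8.40 with doxycycline and 8.80, 8.48, 8.87 and 8.74 with vehicle, a difference of −0.38 ± 0.10 (adjusted p 0.0332) in which 1 array of each group overlapped. Without replicate 3 or replicate 4 of vehicle normoxia, or replicate 4 of doxycycline normoxia, 0 of the 16 mitochondrial genes passed, and without replicate 3 of doxycycline normoxia 1 passed. Lower calls over all genes were 850, 629, 612 and 537 in these fits, in that order, against 1042 with all arrays. The highest adjusted p with 1 array left out was 0.0705 for NARS2, 0.0891 for AARS2 and 0.109 for TARS2.

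The other 13 cytosolic differences in this comparison ran from −0.30 (FARSA) to 0.24 (LARS1), and the other 13 mitochondrial differences from −0.32 (PARS2, adjusted p 0.0563) to 0.14 (FARS2). GARS1, whose mutations are known from inherited peripheral neuropathy, measured 16.11, 16.04, 16.12 and 16.07 in doxycycline normoxia and 15.99, 16.21, 16.20 and 16.16 in vehicle normoxia. It lay around 16, where a plain 16-bit intensity would end, although the deposited values reached 19.85. Its difference was −0.05 ± 0.05 (adjusted p 0.543). KARS1 measured 13.17, 13.19, 13.08 and 13.10 with doxycycline and 13.32, 13.18, 13.32 and 13.31 with vehicle, a difference of −0.15 ± 0.10 (adjusted p 0.359). Neither gene that serves both compartments passed the threshold here.

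By assembly, 1 of the 7 enzymes listed as members of the multisynthetase complex was lower (MARS1), and 5 of the 12 cytosolic genes outside it. The complex holds the arginyl, glutaminyl, glutamyl-prolyl, isoleucyl, leucyl, lysyl and methionyl enzymes on a scaffold, whose only measured component here, AIMP1, differed by 0.25 ± 0.29 (adjusted p 0.643). By structural class, 4 of 19 class I and 5 of 16 class II genes were lower. Among the 12 cytosolic genes counted here as known ATF4 targets 5 were lower (WARS1, AARS1, SARS1, MARS1 and YARS1), and among the other 7 only VARS1 was. The ATF4 split ran the other way for oxygen: in hypoxia with vehicle 3 of the 12 and 3 of the 7 were lower. In hypoxia with doxycycline 1 of the 12 and 2 of the 7 were lower, and with doxycycline in hypoxia 0 of either. These splits are counts and no difference between them was tested.

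**Figure D2:**
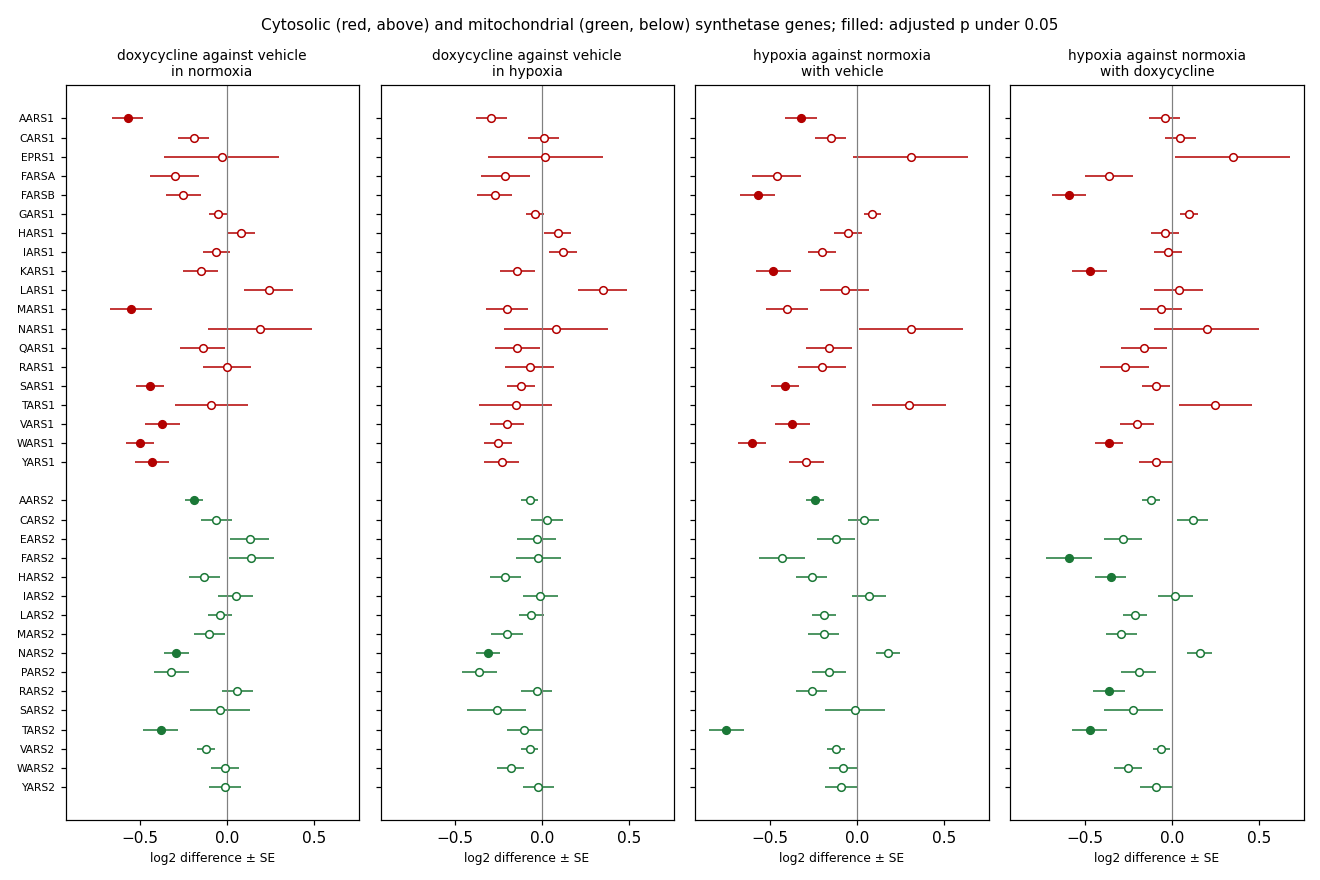
Log2 difference ± SE (horizontal axes) of every cytosolic (red) and mitochondrial (green) synthetase gene in the 4 single-factor comparisons, with filled points for an adjusted p under 0.05. All filled points lie left of 0, and the widest bars belong to EPRS1, NARS1 and TARS1.

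In hypoxia the same induction gave fewer calls. Of the 35 genes only NARS2 was lower with doxycycline, 2.86% of the genes where 1.99% of all genes were lower, and none was higher. NARS2 measured 7.88, 7.70, 7.78 and 7.84 in doxycycline hypoxia and 8.21, 8.08, 8.03 and 8.12 in vehicle hypoxia, a difference of −0.31 ± 0.07 (adjusted p 0.0204) close to that in normoxia. Its call was lost without replicate 1 of vehicle hypoxia (adjusted p 0.0798) and without replicate 2 (0.0711) or 3 (0.0683) of doxycycline hypoxia. Medians were −0.14 over cytosolic and −0.07 over mitochondrial genes, beside 0.00 over all genes, and 28 of 35 differences were below 0. The cytosolic median was −0.08 without replicate 2 of vehicle hypoxia, and the mitochondrial one was −0.11 without replicate 4 of doxycycline hypoxia and −0.12 without replicate 4 of vehicle hypoxia.

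AARS1 measured 14.69, 14.63, 14.79 and 14.89 in doxycycline hypoxia and 15.04, 15.17, 15.19 and 14.78 in vehicle hypoxia, and only replicate 4 of vehicle hypoxia reached into the doxycycline range. YARS1 showed the same layout, with 10.23, 10.19, 10.34 and 10.48 in doxycycline hypoxia and 10.62, 10.64, 10.62 and 10.28 in vehicle hypoxia. MARS1 measured 11.97, 11.83, 12.09 and 12.20 with doxycycline and 12.20, 12.29, 12.48 and 11.92 with vehicle (−0.20 ± 0.12, adjusted p 0.425). On the other three vehicle hypoxia arrays these genes were at or above every doxycycline hypoxia array. SARS1 measured 11.47, 11.42, 11.43 and 11.56 in doxycycline hypoxia, VARS1 8.11, 8.07, 8.18 and 8.32, and AARS2 5.66, 5.65, 5.68 and 5.73, and each overlapped its vehicle hypoxia values given further on. GARS1 measured 16.21, 16.18, 16.18 and 16.18 in doxycycline hypoxia and 16.26, 16.27, 16.13 and 16.26 in vehicle hypoxia, a difference of −0.04 ± 0.05 (adjusted p 0.745).

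The count in hypoxia depended on the arrays that stood apart, since 3 cytosolic genes passed without replicate 4 of vehicle hypoxia alone and 1 without its replicate 3. Over all genes the first of these fits called 1002 lower and 657 higher, and the other 612 and 787, against 447 and 598 with all arrays. Without replicate 4 of both hypoxia groups, 8 of 19 cytosolic genes passed, 7 lower and LARS1 higher (0.51, adjusted p 0.0314), and 4 of 16 mitochondrial genes were lower. In that fit 6.85% of all genes were lower and 3.78% higher. AARS1 then differed by −0.43 (adjusted p 0.0028), against −0.29 ± 0.09 (adjusted p 0.0775) with all arrays. WARS1 differed by −0.30 (adjusted p 0.0362), against −0.25 ± 0.08 (adjusted p 0.0754). YARS1, KARS1, VARS1, MARS1 and SARS1 made up the rest of the lower cytosolic genes, and HARS2, NARS2, PARS2 and SARS2 were the mitochondrial ones. DGAT1 fitted the label on both arrays in question, at 5.18 on replicate 4 of doxycycline hypoxia and 6.24 on replicate 4 of vehicle hypoxia.

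The difference in the doxycycline effect between oxygen levels was tested as an interaction, and it passed the threshold for 0% of all genes and for 0 of the 35 (lowest adjusted p over all genes 0.643). At an unadjusted p under 0.05 there were 1026 of 22411 genes, about the share that this threshold gives without any effect. Of these, 3 were synthetases. These were cytosolic: AARS1 (0.28 ± 0.13), SARS1 (0.32 ± 0.11) and WARS1 (0.24 ± 0.11), each less reduced by doxycycline in hypoxia. The response in hypoxia is therefore not shown to differ from that in normoxia.

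The second factor was oxygen. With vehicle, hypoxia lowered 6 of 19 cytosolic and 2 of 16 mitochondrial genes and raised none, 22.9% of the 35 where 4.65% of all genes were lower and 2.26% higher. Medians were −0.20 and −0.14, beside −0.05 over all genes. The cytosolic genes were WARS1, FARSB, SARS1, KARS1, AARS1 and VARS1, and the mitochondrial ones TARS2 and AARS2. This comparison shares its 4 vehicle normoxia arrays with that of doxycycline in normoxia, so the genes the comparisons have in common are not independent evidence, and each comparison is given by its own values.

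WARS1 measured 12.21, 12.43, 12.24 and 12.14 in vehicle hypoxia, below all 4 vehicle normoxia arrays given above. It differed by −0.60 ± 0.08 (adjusted p 0.00059), a change of over 1.5-fold. FARSB, the β subunit of the cytosolic phenylalanyl enzyme, measured 11.15, 11.33, 10.84 and 11.18 in vehicle hypoxia and 11.55, 11.74, 11.78 and 11.70 in vehicle normoxia, a difference of −0.57 ± 0.10 (adjusted p 0.00379). Its partner subunit FARSA differed by −0.46 ± 0.14 without passing (adjusted p 0.0682). KARS1 measured 12.85, 13.00, 12.85 and 12.53 in vehicle hypoxia, again below every vehicle normoxia array, and differed by −0.48 ± 0.10 (adjusted p 0.00863).

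SARS1 measured 11.61, 11.81, 11.59 and 11.36 in vehicle hypoxia and differed from vehicle normoxia by −0.41 ± 0.08 (adjusted p 0.00791). AARS1 measured 15.04, 15.17, 15.19 and 14.78 and differed by −0.32 ± 0.09 (adjusted p 0.0449). VARS1 measured 8.42, 8.45, 8.53 and 8.09 and differed by −0.37 ± 0.10 (adjusted p 0.0472). The last 2 calls were thin, since AARS1 kept its call in 5 and VARS1 in 3 of 16 fits that each left out 1 array (highest adjusted p 0.123 and 0.142, both without replicate 1 of vehicle normoxia), and without replicate 4 of both hypoxia groups neither passed. The calls of WARS1, FARSB, KARS1 and SARS1 held in all 16.

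TARS2 had the most negative hypoxia difference of the list. It measured 7.88, 8.20, 7.99 and 7.83 in vehicle hypoxia, wholly below the 8.48 to 8.87 of vehicle normoxia, with a difference of −0.75 ± 0.10 (adjusted p 0.00106) that was over 1.5-fold. AARS2 measured 5.78, 5.80, 5.68 and 5.72 and differed by −0.24 ± 0.05 (adjusted p 0.00972). Both held in all 16 fits. FARS2 overlapped between the groups, since replicate 3 of vehicle hypoxia (7.72) lay above replicate 2 of vehicle normoxia (7.55), and so did RARS2, by replicate 2 of vehicle hypoxia (10.09) over replicate 1 of vehicle normoxia (10.08). The remaining mitochondrial differences ran from −0.43 (FARS2, adjusted p 0.0649) to 0.18 (NARS2), and the remaining cytosolic ones from −0.46 (FARSA) to 0.31 (EPRS1 and NARS1).

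With doxycycline on board, hypoxia lowered 3 of 19 cytosolic genes (FARSB, KARS1 and WARS1) and 4 of 16 mitochondrial genes (TARS2, FARS2, RARS2 and HARS2), and raised none. That is 20% of the 35, where 2.97% of all genes were lower and 1.02% higher. Medians were −0.06 and −0.22, beside −0.01 over all genes, and the first was −0.03 without replicate 2 and −0.11 without replicate 4 of doxycycline hypoxia. FARSB measured 10.68, 10.85, 10.89 and 10.99 in doxycycline hypoxia and 11.46, 11.41, 11.37 and 11.52 in doxycycline normoxia, and its difference of −0.59 ± 0.10 (adjusted p 0.00406) was over 1.5-fold. KARS1 measured 12.49, 12.61, 12.69 and 12.87 in doxycycline hypoxia, below every doxycycline normoxia array, and differed by −0.47 ± 0.10 (adjusted p 0.0126). WARS1 measured 12.05, 11.83, 12.11 and 12.02 in doxycycline hypoxia and differed by −0.36 ± 0.08 (adjusted p 0.015). FARSB and KARS1 held in all 16 fits that left out an array, and WARS1 in 14: it was lost without replicate 2 of doxycycline normoxia (adjusted p 0.0559) or of doxycycline hypoxia (0.0561).

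On the mitochondrial side TARS2 measured 7.80, 7.77, 7.97 and 7.96 in doxycycline hypoxia, below all 4 doxycycline normoxia arrays, and differed by −0.47 ± 0.10 (adjusted p 0.0185). FARS2, the single-chain mitochondrial phenylalanyl enzyme, measured 7.18, 7.33, 7.36 and 7.51 in doxycycline hypoxia and 7.88, 8.08, 7.79 and 7.99 in doxycycline normoxia. Its difference was −0.59 ± 0.13 (adjusted p 0.0208), so transcripts for mitochondrial and cytosolic phenylalanine charging (FARS2 and FARSB) were both lower in hypoxia under doxycycline. RARS2, linked by its mutations to pontocerebellar hypoplasia, measured 9.76, 10.01, 9.88 and 10.06 in doxycycline hypoxia and 10.35, 10.24, 10.26 and 10.29 in doxycycline normoxia, a difference of −0.36 ± 0.09 (adjusted p 0.0306). HARS2 differed by −0.35 ± 0.09 (adjusted p 0.0402), with arrays at 7.65 to 8.03 in doxycycline hypoxia and 7.99 to 8.27 in doxycycline normoxia, which overlapped.

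These mitochondrial calls were less firm than FARSB or KARS1. With 1 array left out, TARS2 kept its call in 12 of 16 fits (highest adjusted p 0.0725), FARS2 in 11 (0.0774), RARS2 in 9 (0.108) and HARS2 in 6 (0.139). None of the 16 mitochondrial genes passed without replicate 2 of doxycycline normoxia or without replicate 1 or 2 of doxycycline hypoxia. In these fits 308, 333 and 313 of all genes were lower, against 665 with all arrays. Without replicate 4 of doxycycline normoxia or 3 of doxycycline hypoxia 1 passed, and without replicate 1 or 3 of doxycycline normoxia 2 passed. Lower calls over all genes were then 434, 345, 390 and 476, in that order. In the fit without replicate 4 of both hypoxia groups 7 mitochondrial genes were lower: the same 4, EARS2, LARS2 and MARS2. Calls rose over the whole array in that fit. Of 22411 genes 1554 were lower and 733 higher, against 665 and 228 with all arrays.

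**Figure D3:**
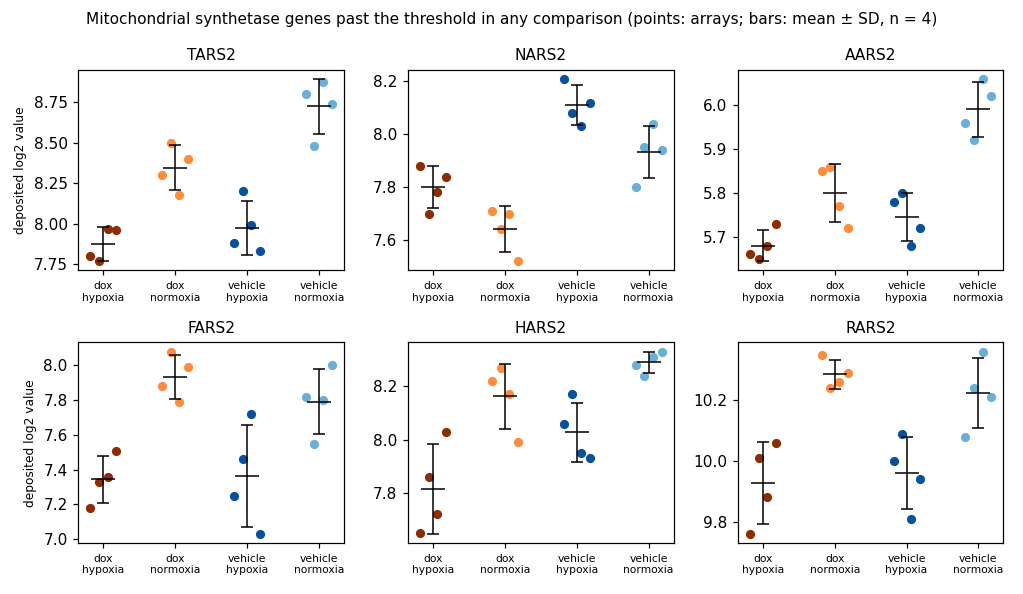
Deposited log2 values (vertical axes) of the 6 mitochondrial synthetase genes past the threshold in any single-factor comparison, by group, with points for arrays and bars for the mean ± SD of 4 arrays. TARS2 and AARS2 are highest in vehicle normoxia, NARS2 is lower in both doxycycline groups, and FARS2 and RARS2 separate by oxygen under doxycycline.

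The order of the 4 group means was counted over the members. The highest group mean was that of vehicle normoxia for 12 of 19 cytosolic and 10 of 16 mitochondrial genes, and the lowest that of doxycycline hypoxia for 11 and 13. The same order was not counted over all genes, so it is not shown to be particular to the synthetases. After each gene was centred on its own mean over the 16 arrays, the average over the 19 cytosolic genes was −0.11 ± 0.03 in doxycycline hypoxia, −0.02 ± 0.04 in doxycycline normoxia, −0.03 ± 0.04 in vehicle hypoxia and 0.17 ± 0.09 in vehicle normoxia (log2, SD, n = 4). The 4 vehicle normoxia arrays (0.04 to 0.25) lay above all others. The averages were not set against the median of all genes, centred alike, which differed between arrays. That median was 0.07 on replicate 1 of vehicle normoxia, above the array's cytosolic average of 0.04. On replicate 4 of vehicle hypoxia it was −0.08, below the array's −0.04. The mean over all genes was 0.00 and −0.01 on these arrays. Whether the separation goes beyond such shifts was not tested. For the 16 mitochondrial genes the average was −0.15 ± 0.09 in doxycycline hypoxia, 0.05 ± 0.05 in doxycycline normoxia, −0.03 ± 0.08 in vehicle hypoxia and 0.13 ± 0.09 in vehicle normoxia. The cytosolic minus mitochondrial average on each array was −0.19 to 0.00 in doxycycline normoxia and −0.03 to 0.14 in vehicle normoxia, so the groups overlapped in how far the classes differed. These averages are a description of the list and carry no test.

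The classes were also compared by pairing each cytosolic gene with the mitochondrial gene for the same amino acid on the same array, which left 17 pairs (EPRS1 was paired with both EARS2 and PARS2, and FARS2 with both FARSA and FARSB). The change of the cytosolic gene minus that of its partner had a 95% interval below 0 for 8 pairs and above 0 for 1 with doxycycline in normoxia. The 8 were the pairs for alanine, cysteine, methionine, serine, valine, tryptophan, tyrosine and, through FARSA, phenylalanine. The tryptophan pair differed by −0.48 ± 0.09 (95% interval −0.69 to −0.28): WARS1 was lower, while WARS2 measured 7.26, 7.30, 7.28 and 7.31 in doxycycline normoxia and 7.07, 7.30, 7.49 and 7.35 in vehicle normoxia, a difference of −0.01 ± 0.08 (adjusted p 0.935). In hypoxia WARS2 measured 6.87, 7.07, 7.07 and 7.15 with doxycycline and 7.22, 7.27, 7.13 and 7.27 with vehicle (−0.18 ± 0.08, adjusted p 0.272). In the alanine pair both genes were lower and AARS1 by more, with a difference between them of −0.39 ± 0.08 (−0.56 to −0.21). The intervals were not adjusted over pairs, and pairs that share a gene are not independent. In every pair the cytosolic gene was the brighter. Mean levels over all arrays were 14.98 and 5.80 for AARS1 and AARS2, 12.37 and 7.21 for WARS1 and WARS2, and 9.89 and 9.26 for CARS1 and CARS2. Whether the level affects the size of a difference on these arrays was not tested.

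With doxycycline in hypoxia 3 pairs lay below 0, those of alanine (−0.23, −0.40 to −0.05), tyrosine (−0.21, −0.39 to −0.04) and FARSA with FARS2 (−0.19, −0.32 to −0.06), and 1 above. Without replicate 4 of both hypoxia groups 4 lay below 0 and 4 above, and the alanine pair was at −0.34 (−0.49 to −0.18), the tyrosine pair at −0.31 (−0.49 to −0.13) and FARSA with FARS2 at −0.20 (−0.37 to −0.04). For hypoxia with vehicle 6 intervals lay below 0 and 2 above. The tryptophan pair again differed (−0.52, −0.73 to −0.32) and the alanine pair did not pass 0 (−0.08, −0.25 to 0.10), while the threonine pair ran the other way at 1.05 ± 0.31 (0.38 to 1.72), with TARS2 lower and TARS1 at 0.30 ± 0.21. Without both replicates 4 the counts were 5 below and 2 above, with the tryptophan pair at −0.47 and the threonine pair at 0.85. For hypoxia with doxycycline 0 intervals lay below 0 and 3 above, and 2 and 4 without both replicates 4. The histidine pair was above 0 in all 4 comparisons, which share arrays, at 0.21 to 0.31. HARS1 and HARS2 are neighbours in the GRCh38.p14 annotation, and HARS1 passed no threshold, with differences from −0.05 to 0.09.

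**Figure D4:**
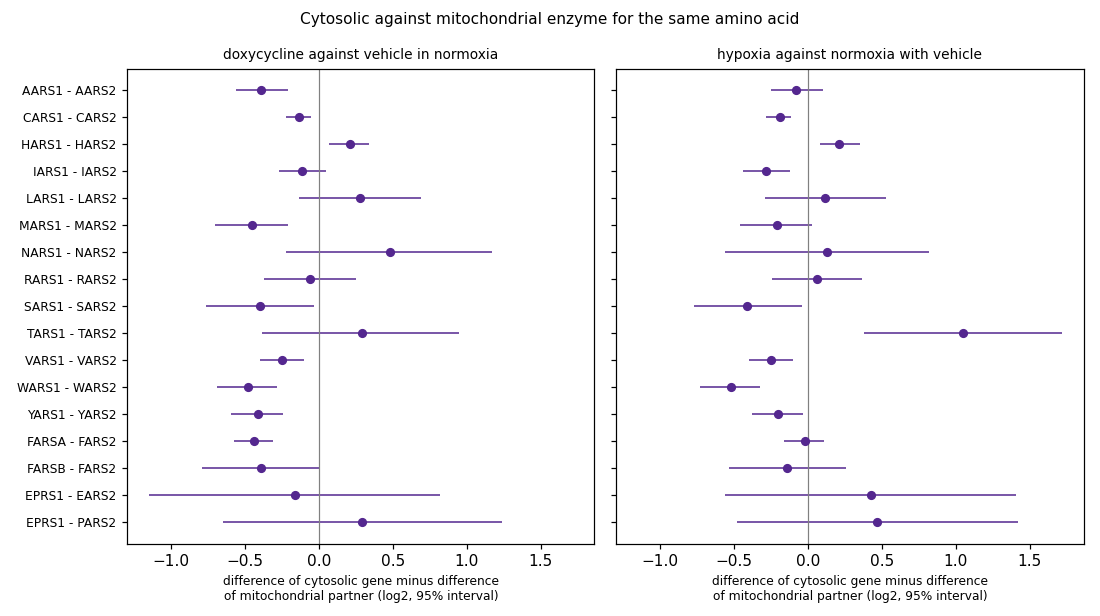
Log2 difference of each cytosolic synthetase gene minus that of the mitochondrial gene for the same amino acid (horizontal axes, points with 95% intervals) with doxycycline against vehicle in normoxia (left) and hypoxia against normoxia with vehicle (right). The tryptophan pair lies below 0 in both panels (−0.48 and −0.52), and the threonine pair lies at 1.05 on the right.

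EPRS1, NARS1 and TARS1 had the widest spread within groups, with pooled SDs of 0.52, 0.47 and 0.33 beside a median of 0.14 over cytosolic and 0.12 over mitochondrial genes. EPRS1, the fused glutamyl-prolyl enzyme, measured 13.46, 13.22, 13.04 and 12.30 in doxycycline hypoxia and 12.51, 12.04, 13.12 and 12.93 in doxycycline normoxia. With vehicle it measured 12.86, 12.78, 12.54 and 13.77 in hypoxia and 11.88, 13.14, 12.87 and 12.83 in normoxia. Arrays of 1 group thus differed by over 1 log2 unit, and no comparison of EPRS1 had an SE under 0.33. NARS1 was highest on the same array, at 14.70 on replicate 4 of vehicle hypoxia, and lowest at 13.04 on replicate 1 of vehicle normoxia. TARS1 had its extremes on those arrays too, at 13.47 and 12.22.

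The axis that set arrays apart over all genes, these 3 included, moved with this spread: EPRS1, NARS1 and TARS1 were high where its score was high and low where it was low. Other members ran against it. On replicate 4 of vehicle hypoxia, the highest score, 11 of 19 cytosolic and 11 of 16 mitochondrial genes were at their lowest of that group, and on replicate 4 of doxycycline hypoxia, the lowest score, 11 and 12 were at their highest. The share of all genes doing so was not counted. The median of all genes, each centred on its own mean, was also lowest of its group on the first array (−0.08) and highest on the second (0.01). This layout is therefore not shown to be particular to the synthetases. What sets the axis was not tested.

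**Figure D5:**
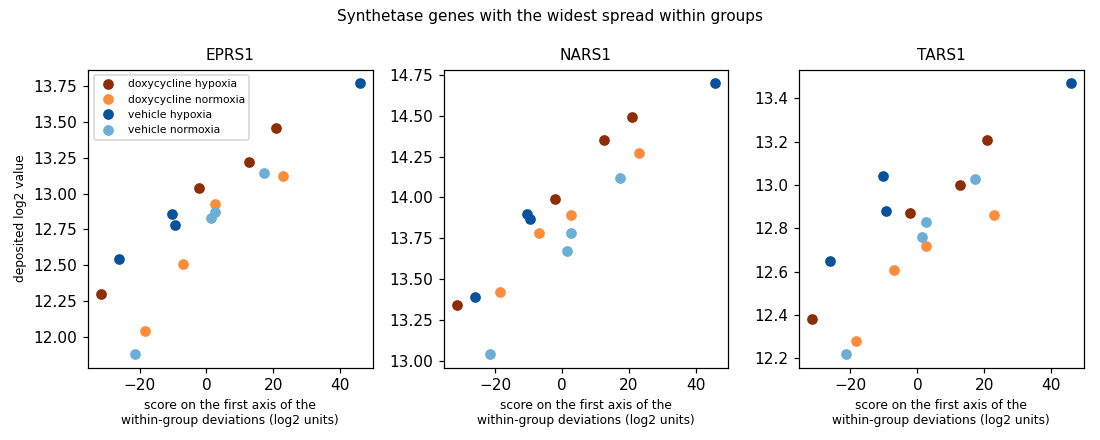
Deposited log2 values of EPRS1, NARS1 and TARS1 on each of the 16 arrays (vertical axes) against the score of the array on the first axis of the within-group deviations of all genes (horizontal axes, log2 units), coloured by group. Replicate 4 of vehicle hypoxia is at the upper right with a score of 45.8.

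The genes around the synthetases gave a mixed picture. Over all genes 4.65% were lower and 4.43% higher with doxycycline in normoxia, and 1.99% and 2.67% in hypoxia. For hypoxia the shares were 4.65% and 2.26% with vehicle, and 2.97% and 1.02% with doxycycline. Without both replicates 4, the lower and higher calls of 22411 genes were, in the same order, 1661 and 1500, 1535 and 848, 720 and 510, and 1554 and 733. Of 25 ATF4 targets other than synthetases, 5 were lower and 0 higher with doxycycline in normoxia, among them the cationic amino acid transporter SLC7A1 (−0.87 ± 0.11, adjusted p 0.000236) and asparagine synthetase ASNS (−0.43 ± 0.08, adjusted p 0.00408). The others were the serine synthesis genes PSAT1, PHGDH and PSPH, of which PHGDH kept its call in 12 and PSPH in 11 of 16 fits that left out an array. With doxycycline in hypoxia 2 were higher (STC2 and FGF21), where 2.67% of all genes were, and 1 was lower (PSPH, −0.39 ± 0.07). With hypoxia and vehicle 3 were higher, such as STC2 (0.39 ± 0.07) and CTH (0.60 ± 0.14), and ASNS (−0.44 ± 0.08) and CBS (−0.25 ± 0.07, kept in 8 of 16 fits that left out an array, highest adjusted p 0.117) were lower. With hypoxia and doxycycline 4 were higher, among them STC2 (0.81 ± 0.07) and CTH (0.77 ± 0.14), and 0 lower. Without both replicates 4, 3 targets were higher and 3 lower with doxycycline in hypoxia, 2 higher and 1 lower with hypoxia and vehicle, and 7 higher and 0 lower with hypoxia and doxycycline. With all arrays the synthetases had no higher call in the hypoxia comparisons, in which these targets did.

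Of 14 measured genes of the integrated stress response itself, 2 were higher and 3 lower with doxycycline in normoxia, where 4.43% and 4.65% of all genes were. EIF2AK4, which encodes GCN2, measured 10.63, 10.66, 10.55 and 10.60 in doxycycline normoxia and 9.83, 10.24, 10.11 and 10.04 in vehicle normoxia (0.55 ± 0.09, adjusted p 0.0011). In hypoxia it measured 10.78, 10.68, 10.89 and 10.76 with doxycycline and 10.35, 10.24, 10.35 and 10.10 with vehicle (0.52 ± 0.09, adjusted p 0.0025). The phosphatase subunit PPP1R15B was the other higher gene in normoxia (0.54 ± 0.11), while the pseudokinase TRIB3 (−0.60 ± 0.14), GCN1, a partner of GCN2 (−0.64 ± 0.16), and DDIT3 (−0.30 ± 0.08) were lower. The calls of GCN1 and DDIT3 held in 10 and 6 of 16 fits that left out an array. ATF4 transcript measured 12.77, 12.87, 12.73 and 12.64 in doxycycline normoxia and 13.00, 12.97, 13.04 and 13.09 in vehicle normoxia, a difference of −0.27 ± 0.09 that did not pass (adjusted p 0.0715). ATF4 is controlled largely at translation, which these arrays do not measure.

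In hypoxia 2 of these 14 genes were higher with doxycycline (EIF2AK4 and ATF3, 0.38 ± 0.09, the call of ATF3 kept in 12 of 16 fits that left out an array). Hypoxia raised 2 with vehicle (EIF2AK3, 0.63 ± 0.14, and PPP1R15B, 0.57 ± 0.11) and 5 with doxycycline, among them DDIT3 (0.46 ± 0.08) and ATF3 (0.48 ± 0.09), and lowered none. DDIT3 measured 7.76, 7.82, 7.74 and 7.71 in doxycycline hypoxia and 7.27, 7.51, 7.24 and 7.16 in doxycycline normoxia, beside 7.67, 7.59, 7.54 and 7.33 in vehicle hypoxia and 7.51, 7.68, 7.58 and 7.59 in vehicle normoxia. ATF4 was higher in doxycycline hypoxia (13.10, 13.04, 13.12 and 13.16) than in doxycycline normoxia by 0.35 ± 0.09 (adjusted p 0.0407, kept in 4 of 16 fits that left out an array), whereas with vehicle it was 13.23, 13.13, 13.37 and 12.85 in hypoxia (0.12 ± 0.09, adjusted p 0.401). Without both replicates 4, doxycycline in hypoxia had 3 of the 14 higher and 1 lower, and hypoxia raised 2 with vehicle and 7 with doxycycline.

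Other lists were read beside single members, and the shares over all genes given before the ATF4 targets apply to them too. WARS1 is also an interferon-γ response gene, and of 9 other such genes measured 3 were higher with doxycycline in normoxia (IDO1 at 0.35 ± 0.07, GBP2 at 0.68 ± 0.16 and CXCL10) and 1 was lower (HLA-E, −0.52 ± 0.11), while WARS1 was lower. In hypoxia doxycycline lowered 2 of them (HLA-E, −0.56 ± 0.11, and PSMB8) and raised 0, and hypoxia lowered 1 with vehicle (IRF1) and 1 with doxycycline (PSMB9, −0.54 ± 0.09). The calls of PSMB8 and IRF1 were kept in 6 and 5 of 16 fits that left out an array, and without both replicates 4 these 3 counts of lower genes were 2, 0 and 4. Of 9 genes for MYC and ribosome biogenesis, a growth program to which synthetases are often linked, 2 were lower with doxycycline in normoxia (MYC, −0.47 ± 0.13, and BOP1, −0.43 ± 0.12, kept in 11 and 10 of 16 fits that left out an array) and 0 in hypoxia. Hypoxia lowered 3 with vehicle and 2 with doxycycline, RRP9 by the smallest adjusted p in both (−0.55 ± 0.08 and −0.42 ± 0.08). None of these 9 was higher in any of the 4 comparisons. Without both replicates 4, 3 of them were lower with doxycycline in hypoxia, 1 with hypoxia and vehicle and 4 with hypoxia and doxycycline.

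Downstream of charging, none of 4 cytosolic elongation factor genes, 4 mitochondrial elongation and initiation factor genes or 2 deacylase genes passed in any of the 4 comparisons with all arrays. Without both replicates 4, 2 cytosolic factor genes, 1 mitochondrial factor gene and 1 deacylase gene were lower with doxycycline in hypoxia, 1 cytosolic factor gene with doxycycline in normoxia and 1 deacylase gene in hypoxia with doxycycline. Nearest to the threshold were EEF2 in doxycycline normoxia (−0.25 ± 0.09, adjusted p 0.095), TSFM in the same comparison (−0.20 ± 0.09, adjusted p 0.207) and DTD1 in hypoxia with doxycycline (−0.29 ± 0.09, adjusted p 0.0902). Of the 4 mitochondrial charging partners, which complete glutaminyl-tRNA and formylate methionyl-tRNA, GATB was lower in hypoxia with vehicle (−0.40 ± 0.11, adjusted p 0.0429, kept in 6 of 16 fits that left out an array), and the formyltransferase MTFMT differed by 0.40 ± 0.12 with doxycycline in normoxia without passing (adjusted p 0.0521). Without both replicates 4, 1 of these partners was higher with doxycycline in normoxia, 1 was lower in hypoxia with vehicle and 1 in hypoxia with doxycycline. Whether the synthetases differ from these lists was not tested.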

How the data were processed

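Biotin-labelled A498 RNA was hybridised to 16 arrays, grouped 4 by 4 from their titles. The deposited log2 values of the authors came from RMA, which the submitters' processing notes name together with Transcriptome Analysis Console. No version and no genome build was given in the sources used here. Values ran from 1.71 to 19.85 with array medians of 3.91 to 4.11. As some exceed 16, a step beyond plain RMA is possible, and fold sizes are on the deposited scale. Precision is limited by the number of arrays.

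Of 70523 probe sets, 23781 had 1 symbol, 1543 several and 45199 none. Symbols were updated against RefSeq (GRCh38.p14; 21497 matched by identifier, 2280 by symbol, 4 kept, 306 changed), and the brightest probe set was used for 528 genes with more than 1, leaving 22411 genes. A limma model (3.58.1, R 4.3.3) of 4 group means with an intensity trend, tested on simulated data, was fitted to all genes. Tests were two-sided with Benjamini-Hochberg adjustment over all genes at 0.05. The members and gene lists were chosen with earlier results of these data known. The ATF4-target label follows general knowledge.

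Values on every array are given for members past the threshold (up to 10 cytosolic and 5 mitochondrial by smallest adjusted p), for GARS1, KARS1, WARS2 and AARS2, and for DGAT1, DGAT2, ATF4, DDIT3 and EIF2AK4 (DGAT1 and DGAT2 as ranges or shares, and FARS2 and RARS2 with vehicle only by the arrays that overlap). From each list up to 2 genes per direction by smallest adjusted p were named, or the nearest where none passed, and others named were chosen after their values were seen. Lists without a value for a gene (13 genes in all, such as TUFM and AIMP2) are counted over those measured. A planned comparison of protein sequences was not run. Alternatives were another normalization, centring, filters, weights, probe set means, the replicate number as a block, single arrays left out and the methods' t-test, and 2 were added after seeing the data (without replicate 4 of vehicle hypoxia and replicate 1 of vehicle normoxia, and the enzyme pairs and gene lists with arrays left out).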

Additional observations from a re-analysis of the deposited data

Results flagged for a closer look

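In 10 of 172 groups of 4 arrays checked, 1 array lay far from the others, where chance gives about 1 in 20. In vehicle normoxia, replicate 2 was lowest for FARSA (12.52, others 12.85 to 12.89), HARS1 (8.73, others 8.80 to 8.81), KARS1 (13.18, others 13.31 to 13.32) and MARS1 (12.39, others 12.68 to 12.72). Replicate 1 of that group was lowest for IARS1 (13.77, others 14.04 to 14.09) and LARS1 (10.61, others 11.04 to 11.12). In vehicle hypoxia, GARS1 was lowest on replicate 3 (16.13, others 16.26 to 16.27) and YARS1 on replicate 4 (10.28, others 10.62 to 10.64). LARS1 was lowest on replicate 4 of doxycycline hypoxia (11.08, others 11.30 to 11.32), and WARS1 was highest on replicate 2 of doxycycline normoxia (12.42, others 12.34 to 12.35).

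DDIT3, the stress-induced transcription factor CHOP, differed by −0.30 ± 0.08 with doxycycline in normoxia (limma, adjusted p 0.0395, kept in 6 of 16 fits that left out an array) and by 0.22 ± 0.08 with doxycycline in hypoxia, which did not pass (adjusted p 0.171). It was listed because the arrays did not overlap in either comparison and lay on opposite sides, although in normoxia the nearest arrays were equal at 2 decimals (7.51). The interaction was 0.52 and did not pass the threshold (adjusted p 0.956).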

How the results depend on the processing

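Of 25 calls on single members, none reversed under any alternative run. Kept were 25 with array weights, the filter on low values, the mean of probe sets and no intensity trend, 23 without replicate 4 of both hypoxia groups, 22 after centring, 20 after another quantile normalization, 16 with only the arrays compared, 13 with the replicate block and 4 at a change of at least 1.5-fold. The methods' t-test kept 10 after adjustment.

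With doxycycline in normoxia, cytosolic calls were 6 (4 to 6 with 1 array left out), 10 by the unadjusted t-test and 0 at 1.5-fold. Their median of −0.15 ran from −0.26 to −0.14 with 1 array left out and was −0.26 without replicate 4 of vehicle hypoxia and replicate 1 of vehicle normoxia, a pair of arrays chosen after seeing the data (the ends of the first axis of all values, group differences included). Mitochondrial calls were 3 (0 to 4), 0 with the replicate block, 5 with array weights, 1 and 5 by the adjusted and unadjusted t-test, and 0 at 1.5-fold. Over all 22411 genes, weights called 2682 lower and 2095 higher, and the unadjusted t-test 3298 and 2449. The main fit called 1042 and 993, the replicate block 712 and 741, and the adjusted t-test 960 and 911.

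With doxycycline in hypoxia, cytosolic calls were 0 (0 to 3), 8 without replicate 4 of both hypoxia groups, 4 without the pair chosen after seeing the data, 2 with the filter, 1 without the trend, 8 with weights and 3 by the unadjusted t-test. LARS1 was higher without both replicates 4, without the chosen pair, with weights and by the unadjusted t-test, and the others there were lower. Their median of −0.14 (−0.20 to −0.08) was −0.23 without both replicates 4 and −0.20 without the chosen pair. Mitochondrial calls were 1 (0 to 2), 0 with the replicate block, 4 without both replicates 4, 2 without the chosen pair, with the filter and without the trend, 6 with weights, 0 with only the arrays compared, 0 and 4 by the t-test and 0 at 1.5-fold. Their median of −0.07 was −0.18 without both replicates 4. Over all 22411 genes, weights called 3048 lower and 2041 higher, and the unadjusted t-test 1400 and 1567. Without the chosen pair 1100 were lower and 750 higher, where the main fit called 447 and 598. With only the arrays compared 90 were lower and 195 higher. The adjusted t-test called 59 and 139, and the replicate block 277 and 441.

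For hypoxia with vehicle, cytosolic calls were 6, 11 with weights, 1 with only the arrays compared, 0 by the adjusted t-test and 1 at 1.5-fold, and their median of −0.20 ran from −0.28 to −0.17 with 1 array left out. Mitochondrial calls were 2, 4 with the filter, 9 with weights, 1 with only the arrays compared, 0 and 8 by the t-test and 1 at 1.5-fold. NARS2 was higher with weights and by the unadjusted t-test, and the others there were lower. For hypoxia with doxycycline, cytosolic calls were 3, 5 with weights, 7 by the unadjusted t-test and 1 at 1.5-fold, and their median of −0.06 (−0.11 to −0.03) was −0.11 without both replicates 4. Mitochondrial calls were 4 (0 to 5), 0 with the replicate block, 7 without both replicates 4, 2 after quantile normalization, 8 with weights, 2 and 10 by the t-test and 1 at 1.5-fold. By the unadjusted t-test GARS1 and NARS2 were higher in this comparison, and the others were lower. Over all 22411 genes, weights called 2862 lower and 1748 higher in hypoxia with vehicle, where the main fit called 1043 and 506. In hypoxia with doxycycline weights called 2176 and 1190, and the main fit 665 and 228. The unadjusted t-test called 2554 and 1181 with vehicle, and 2792 and 1227 with doxycycline. With only the arrays compared 89 genes were lower and 31 higher with vehicle, and the adjusted t-test called 9 and 2. With doxycycline the adjusted t-test called 552 and 246, quantile normalization 506 and 247, and the replicate block 359 and 120. The interaction gave 0 member calls in each setting that fitted all 4 groups. It was not fitted with only the arrays compared or by the t-test. The causes were not tested, apart from the fewer arrays that some settings leave.

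Deviations of same-numbered arrays correlated between −0.835 and 0.536, over 0.1 in 8 of 24 pairs. Because 1 axis held 63.3% of the variance within groups, these correlations cannot show whether same-numbered arrays shared a culture or batch. Whether the 12 of 25 member calls lost under the replicate block are weaker effects was not tested.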
